A study of Mus musculus with 12 samples.

Results

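The comparison described here is that of kidneys with transient *LIN28B* overexpression (LIN28OE) and kidneys of littermate controls (WT), all of strain C57BL/6 and collected at postnatal day 3. Members were chosen by the genotype and strain labels of each library, which gave 6 of the 12 whole-kidney RNA-seq libraries of the series, 3 LIN28OE and 3 WT. Libraries were named by their number in the labels: the WT kidneys were 25, 28 and 29, and the LIN28OE kidneys were 26, 27 and 30. Kidneys 25, 28, 26 and 27 came from litter 1, and kidneys 29 and 30 came from litter 2. The model carries a human *LIN28B* transgene under a doxycycline-responsive promoter (*TRE-LIN28B*, targeted near the *Col1a1* gene in V6.5 embryonic stem cells) together with a lox-STOP-lox-rtTA allele at *Rosa26* and *Wt1-Cre*. The transgene can therefore be switched on only in cells of the *Wt1* lineage, and it was induced by a short pulse of doxycycline in the drinking water late in gestation. The kidneys of each group are described as biological replicates drawn from both litters, and which of these alleles the WT littermates carried is not given in the sources used here.

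LIN28A and LIN28B are RNA-binding proteins that block the maturation of the let-7 family of microRNAs. Mature let-7 represses messenger RNAs that carry matches to its seed in their 3′ untranslated regions (UTRs), and both factors are known as regulators of developmental timing. In the kidney, nephrons arise from a pool of progenitors called the cap mesenchyme, which surrounds the tips of the branching ureteric tree, and in mice this pool is used up within days of birth. The comparison asks which transcripts differ in a kidney that received extra LIN28B shortly before that time.

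The 9 let-7 family members found in the RefSeq table share 1 seed, and their mature sequences are shown because the seed defines the sites counted further on. They are written 5′ to 3′ from the RefSeq annotation of GRCm38.p6, with bases 2 to 8, the seed, in capitals.
mmu-let-7a-5p: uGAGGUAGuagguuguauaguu
mmu-let-7b-5p: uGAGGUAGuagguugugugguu
mmu-let-7c-5p: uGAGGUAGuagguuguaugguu
mmu-let-7d-5p: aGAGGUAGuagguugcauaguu
mmu-let-7e-5p: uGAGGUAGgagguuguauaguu
mmu-let-7f-5p: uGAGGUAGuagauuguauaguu
mmu-let-7g-5p: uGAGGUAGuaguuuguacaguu
mmu-let-7i-5p: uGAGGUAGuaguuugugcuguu
mmu-miR-98-5p: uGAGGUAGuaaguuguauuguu

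Pairing with this seed requires CTACCTC in a messenger RNA, and an A after it gives the 8-base match CTACCTCA. The 8-base matches in the 3′ UTRs of 4 let-7 targets are shown because these genes were among those that rose in the LIN28OE kidneys. The 28-base windows were read from GENCODE M21 on GRCm38 (mm10, the build of the submitters' processing notes), 5′ to 3′ on the strand of the gene, with the match in capitals. All 7 windows lie in the last exon of the transcript used. *Hmga2* has its site at chr10:120364218-120364245 on the minus strand, in exon 6 of 6. The 3 sites of *Igf2bp1* lie in exon 15 of 15 on the minus strand, at chr11:95961772-95961799, chr11:95959351-95959378 and chr11:95958757-95958784. *Igf2bp2* has its site at chr16:22059467-22059494 on the minus strand, in exon 16 of 16. The 2 sites of *Igdcc3* lie on the plus strand in exon 14 of 14, at chr9:65185708-65185735 and chr9:65185788-65185815.
Hmga2 site 1: ccgacattcaatttCTACCTCAgcatca
Igf2bp1 site 1: ctgtgcgaagtaaaCTACCTCAaggtgt
Igf2bp1 site 2: agcagtgctattaaCTACCTCAgcccca
Igf2bp1 site 3: tataaatggatgaaCTACCTCAgtcctc
Igf2bp2 site 1: cacacaaataaaagCTACCTCAggtgtt
Igdcc3 site 1: gtgactctcagcacCTACCTCAgccgga
Igdcc3 site 2: gcccgaaagcactcCTACCTCAagcccc

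Counts summed to between 41225426 and 61872736 per kidney, so that 3 counts corresponded to between 0.0485 and 0.0728 CPM (counts divided by the total of the kidney and multiplied by 1000000). Normalized expression below is in CPM scaled by the trimmed mean of M values. Of the 24062 genes in the files, 15793 passed the count filter and were tested. By the chi-square per gene, which weighs abundant genes most, kidney 30 stood apart from the other LIN28OE kidneys. It was 59.7 between kidneys 26 and 27 but 239 and 228 between kidney 30 and each of these, against 31.4 to 76.2 among the WT kidneys. Between kidney 30 and WT kidneys 25, 28 and 29 it was 161, 143 and 176, lower than between kidney 30 and its own group. Between kidneys 26 or 27 and the WT kidneys it was 165 to 295. The Pearson correlation of log2 CPM did not set kidney 30 apart in this way. That correlation was 0.9222 between kidneys 26 and 27, 0.9215 between 26 and 30, and 0.9133 between 27 and 30. With the WT kidneys it was lowest for kidney 27, at 0.906 to 0.916. The slope of expression on the log2 of transcript length was -0.105 and -0.109 in LIN28OE kidneys 26 and 27 but 0.104 in kidney 30, and 0.103, 0.0527 and -0.0458 in WT kidneys 25, 28 and 29. Transcripts of the shortest length quintile had a median log2 fold change of 0.14. Markers of fat varied as well. *Ucp1*, which marks brown fat, stood at 17.5 and 14.4 CPM in WT kidneys 25 and 28, at 2.35 in WT kidney 29 and at 2.003, 0 and 0.344 in the LIN28OE kidneys, and all 6 fat markers tested had negative log2 fold changes, with none called. By *Xist* and Y-linked genes, 1 kidney of each group (29 and 26) was male, and the other 4 were female. The part of any of these in the results was not tested, and counts without kidney 30 or within litters are given beside the results they touch.

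The targeted gene was checked first. Counts on the mouse *Lin28b* gene were 0, 18 and 33 in WT kidneys 25, 28 and 29, and 232, 224 and 71 in LIN28OE kidneys 26, 27 and 30. All 3 LIN28OE kidneys thus lay above all 3 WT kidneys, with kidney 30 lowest among them. The log2 fold change was 3.13 (SE 1.27, adjusted p = 0.231), which did not pass the threshold. Reads from the human transgene and from the mouse gene cannot be told apart in these counts. *Lin28a* had 0 counts in each of the 6 kidneys, which allows up to the 3-count level given above. *Wt1*, whose promoter drives the Cre, had 53.7, 47.2 and 47.3 CPM in the WT and 40.5, 38.1 and 40.3 in the LIN28OE kidneys (log2 fold change -0.32, adjusted p = 0.321).

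At an adjusted p below 0.05, 194 of the 15793 genes (1.23%) differed between the groups: 73 (0.462%) rose and 121 (0.766%) fell in the LIN28OE kidneys. In all 194 the 3 LIN28OE kidneys lay outside the range of the 3 WT kidneys, as they did for 10.7% (higher) and 13.3% (lower) of all genes tested. The log2 fold change had a size of 1 or more for 44 of the 73 and 77 of the 121. At an unadjusted p below 0.01, 1158 genes (7.33%) stood apart, 514 (3.25%) higher and 644 (4.08%) lower. With litter as a block in the fit, 33 genes (0.209%) rose and 62 (0.393%) fell, and 93 of the 194 kept their call. Without kidney 30, 1074 genes (6.61%) rose and 1000 (6.15%) fell, and all 194 remained called. All 194 also remained called with the length slope of each kidney as a covariate, which gave 526 (3.33%) higher and 543 (3.44%) lower. Leaving out any 1 of the other 5 kidneys left between 21 and 71 calls, lowest without WT kidney 28 (21) and WT kidney 25 (27), and 21 of the 194 genes were called whichever kidney was left out, among them *Hmga2*, *Igf2bp1*, *Igf2*, *Six2*, *Cited1*, *Meox2*, *Slc34a1*, *Gatm*, *Slc12a3*, *Nox4* and *Gpx3*. With the fat-marker level of each kidney as a covariate, 6 genes (0.038%) rose and 3 (0.019%) fell. This level, the mean log2 CPM of fat markers, was 3.99, 4.21 and 1.14 in WT kidneys 25, 28 and 29. In LIN28OE kidneys 26, 27 and 30 it was 1.62, -4.74 and -0.31. The covariate thus went partly with the group, and this fit separates them poorly. Both covariates were chosen after seeing the data. All 194 genes kept their sign in each of these fits. The median log2 fold change over all genes was -0.02, with 7660 genes positive and 8133 negative. For a single gene, the smallest p of an exact permutation test of 3 against 3 kidneys is 0.1, so calls rest on the fit across all genes.

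*Hmga2*, *Igf2bp1* and other established let-7 targets rose in the LIN28OE kidneys. Of 27 let-7 targets tested, 8 rose and 0 fell, against 0.462% and 0.766% of all genes tested. These shares are also the background for the counts of rises and falls in the lists below. A positive log2 fold change was found for 24 of them, against 7660 of all 15793 genes, with a median of 0.69. In whole kidney, more cells of a type and more RNA per cell cannot be told apart. *Hmga2*, an architectural chromatin factor of embryonic tissues, had 12.8, 14.9 and 16.9 CPM in the WT and 213, 211 and 163 in the LIN28OE kidneys, each triplet in the order 25, 28, 29 and 26, 27, 30, as in all that follow. The lowest LIN28OE kidney, 30, was still far above the highest WT kidney, 29. It had the smallest p of all genes tested (log2 fold change 3.72, SE 0.19, adjusted p = 6.16e-05).

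**Figure D1:**
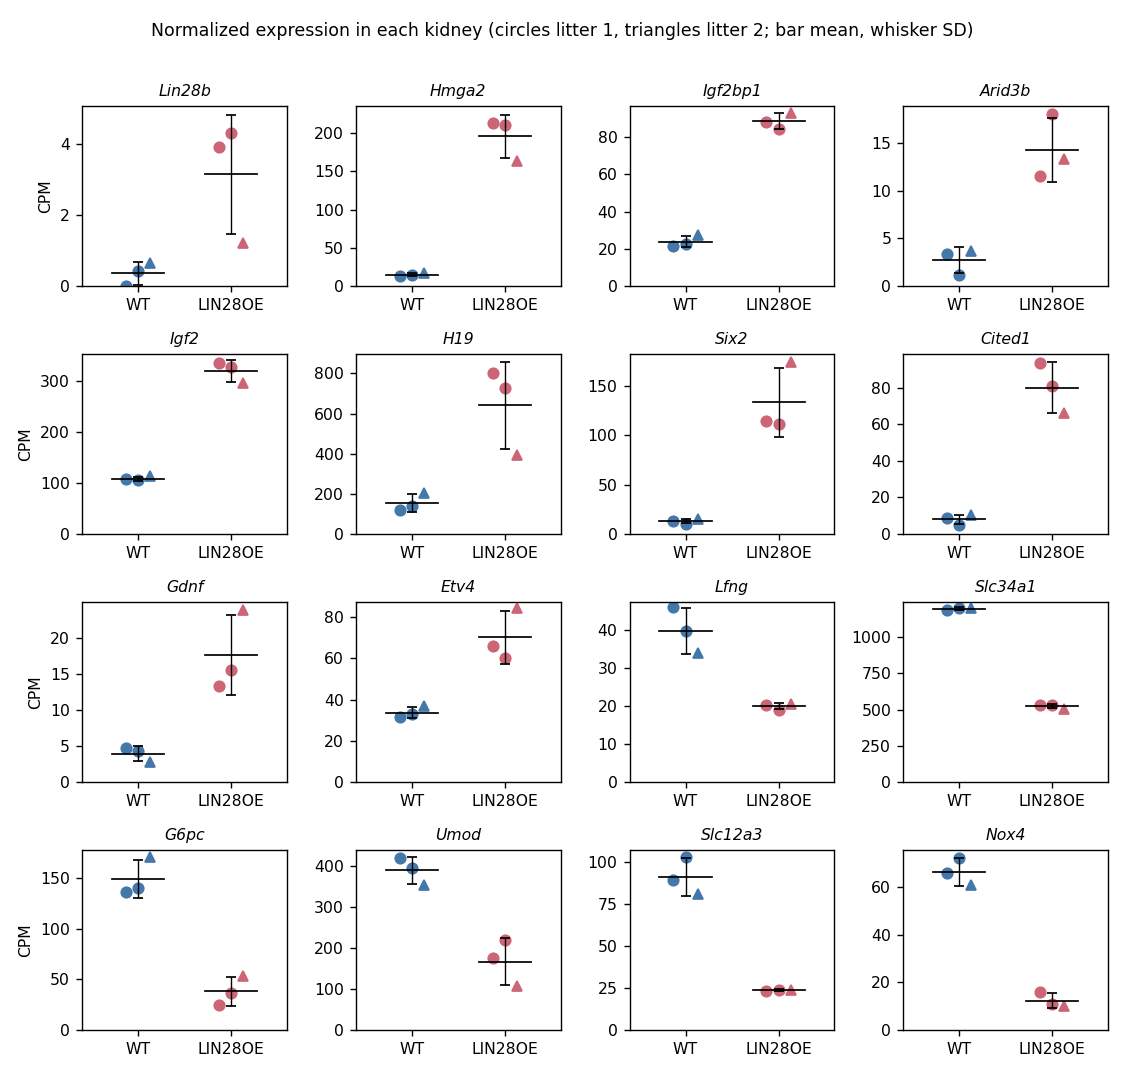
Normalized expression (CPM, linear axis from 0) of 16 genes in each WT and LIN28OE kidney. Circles are kidneys of litter 1 and triangles those of litter 2, with the bar at the group mean and the whisker at the SD (n = 3). The kidneys of the 2 groups are apart in each panel, and *Lin28b* is the panel in which kidney 30 lies nearest to the WT kidneys.

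The insulin-like growth factor 2 mRNA-binding proteins, which stabilize their target transcripts, followed. *Igf2bp1* had 21.7, 22.4 and 27.1 CPM in the WT and 88.3, 84.1 and 92.8 in the LIN28OE kidneys, with a spread within each group far below the gap between them (log2 fold change 1.90, SE 0.16, adjusted p = 0.000977). *Igf2bp2* had 61.3, 60.01 and 55.8 CPM in the WT and 158, 118 and 240.4 in the LIN28OE kidneys (log2 fold change 1.54, SE 0.24, adjusted p = 0.0185), and kidney 30 was the highest of its group. Their paralog *Igf2bp3* had a log2 fold change of 0.69 and was not called (adjusted p = 0.187). *Arid3b*, a DNA-binding factor of the ARID family, had 3.32, 1.21 and 3.65 CPM in the WT and 11.5, 17.96 and 13.2 in the LIN28OE kidneys (log2 fold change 2.38, SE 0.44, adjusted p = 0.0391), while its paralog *Arid3a* was not called (0.90, adjusted p = 0.0605). *Igdcc3*, a cell-surface protein of the immunoglobulin superfamily, had 5.67, 6.80 and 8.05 CPM in the WT and 22.6, 17.004 and 21.4 in the LIN28OE kidneys (log2 fold change 1.57, SE 0.26, adjusted p = 0.0235). The other 3 that rose were *Ccnd2*, a cyclin of the G1 phase, *Dicer1*, the RNase that cuts microRNA precursors, and *Nras*, a small GTPase. They changed less, by 0.79, 0.98 and 0.68 on the log2 scale. With litter as a block 4 of the 8 kept their call (*Hmga2*, *Igf2bp1*, *Igf2bp2* and *Igdcc3*), while *Ccnd2*, *Dicer1*, *Arid3b* and *Nras* had adjusted p values of 0.0644, 0.0514, 0.0737 and 0.0807. With the fat-marker covariate *Hmga2* and *Igf2bp1* alone of the 8 kept theirs, while the median of the let-7 targets was 0.88, against 0.69 without it. *Myc*, *Mycn* and *Trim71*, other known targets, had log2 fold changes of 0.67, 0.33 and 1.31 and were not called.

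Among 13 genes of the microRNA machinery, 2 rose and none fell, against 0.462% and 0.766% of all genes. Besides *Dicer1*, this was *Tarbp2*, the partner of Dicer, with 38.4, 37.1 and 50.6 CPM in the WT and 118, 103 and 69.5 in the LIN28OE kidneys (log2 fold change 1.20, SE 0.22, adjusted p = 0.0374). Neither kept its call with litter as a block (adjusted p = 0.0514 and 0.0821). *Drosha*, *Dgcr8* and *Xpo5*, which act before Dicer, and *Zcchc11* and *Dis3l2*, which uridylate and degrade let-7 precursors marked by LIN28, were not called, with log2 fold changes of 0.23, 0.36, -0.01, 0.51 and -0.55.

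Genes with let-7 seed matches differed little as a whole and more as the number of matches grew. The longest annotated 3′ UTR was searched on the transcript strand for CTACCTCA, CTACCTC and TACCTCA, counted without overlap, in the 14229 genes tested that have one. The 11873 genes without a match had a median log2 fold change of -0.03 and 0.379% of them rose. It was 0.00 for the 1921 genes with 1 match, of which 0.625% rose, 0.02 for the 348 genes with 2 matches, of which 2.01% rose, and 0.11 for the 87 genes with 3 or more, of which 9.20% rose. Over all genes with a 3′ UTR 0.506% rose. For the 8-base match alone the median was 0.07 in 514 genes, and 0.31 in the 27 genes with at least 2 of them. Genes with more matches had longer 3′ UTRs, with a median of 4989 bases for 3 or more matches against 960 for none. Among genes of the longest 3′ UTR tertile the median was 0.04 with an 8-base match (332 genes) and -0.09 without any match (3227 genes). In the middle tertile it was 0.11 (141 genes) and -0.08 (4107 genes). The shortest tertile showed little difference, with 0.10 (41 genes) and 0.07 (4539 genes). Among genes with an 8-base match 10 (1.95%) rose and 3 (0.584%) fell, against 0.506% and 0.801% of all genes with a 3′ UTR. The 3 that fell were *Ehhadh*, *Chdh* and *Slc14a2*. *Hmga2* holds 7 matches, *Igf2bp1* and *Arid3b* 5 each, and *Dicer1* none in the 3′ UTR searched. A match is a description of the sequence and does not show that let-7 binds there.

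**Figure D2:**
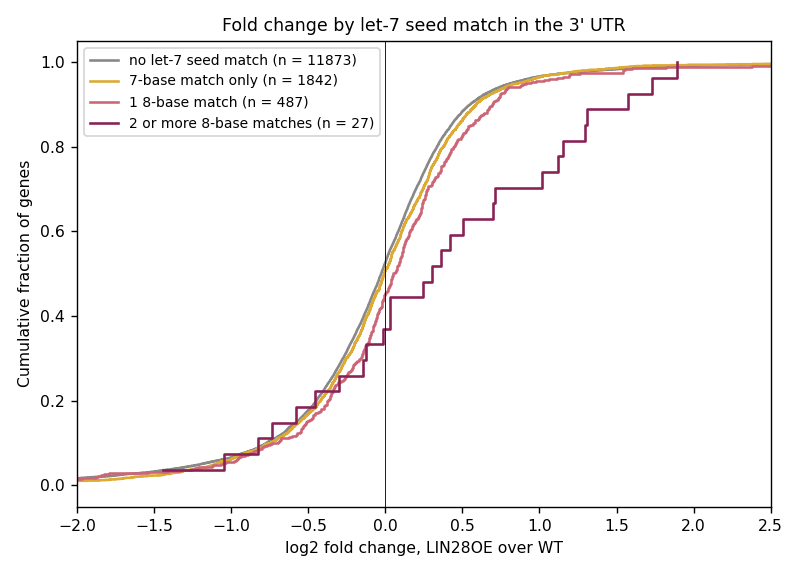
Cumulative fraction of genes (vertical axis) against the log2 fold change of LIN28OE over WT (horizontal axis), by the kind of let-7 seed match in the longest 3′ UTR. The line for the 27 genes with at least 2 8-base matches lies to the right of the others, with a median of 0.31, and the lines for 1842 genes with a 7-base match only and 11873 genes with none nearly coincide.

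*Igf2* and *H19*, neighbours on chromosome 7 that are imprinted in opposite parental directions, both rose. *Igf2*, the fetal growth factor, had 107, 106 and 113 CPM in the WT and 336, 329 and 296 in the LIN28OE kidneys, so that the LIN28OE kidneys were at about the same level as each other and apart from the WT kidneys (log2 fold change 1.56, SE 0.12, adjusted p = 0.000938). *H19*, a long non-coding RNA, had 119, 138 and 203 CPM in the WT and 801, 729 and 395 in the LIN28OE kidneys (log2 fold change 2.06, SE 0.28, adjusted p = 0.0115). Kidney 30 had the lowest *H19* of its group and WT kidney 29 the highest of its own. Of 19 imprinted growth genes tested, these 2 rose and none fell, 18 had a positive log2 fold change, and the median was 0.73. *Igf2r*, which clears IGF2, and *Dlk1* and *Peg10* had log2 fold changes of 0.75, 1.14 and 1.498 and were not called (adjusted p = 0.0685, 0.0907 and 0.129). Of the 15 genes of the IGF axis, *Igf2* rose and *Igfbp7*, which encodes a secreted IGF-binding protein, fell, with 1258, 1205 and 1105 CPM in the WT and 648, 587 and 584 in the LIN28OE kidneys (log2 fold change -0.97, SE 0.11, adjusted p = 0.00605). The receptors *Igf1r* and *Insr* had log2 fold changes of 0.15 and 0.18.

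*Six2*, *Cited1*, *Eya1* and other genes of the nephron progenitors rose in the LIN28OE kidneys. Of 19 cap mesenchyme genes tested, 7 rose and none fell, against 0.462% and 0.766% of all genes. In 15 of the list all LIN28OE kidneys lay above all WT kidneys (10.7% of all genes), and the median log2 fold change was 0.83. *Six2*, the transcription factor that keeps progenitors undifferentiated, had 13.2, 10.5 and 15.3 CPM in the WT and 115, 111 and 173 in the LIN28OE kidneys (log2 fold change 3.35, SE 0.24, adjusted p = 0.000797). *Cited1*, a marker of the least committed progenitors, had 8.54, 5.16 and 10.2 CPM in the WT and 93.4, 80.96 and 65.9 in the LIN28OE kidneys (log2 fold change 3.33, SE 0.27, adjusted p = 0.000938). Kidney 30 was the highest LIN28OE kidney for *Six2* and the lowest for *Cited1*, and for both genes the groups lay far apart. *Eya1*, a partner of Six2, had 6.96, 10.5 and 13.3 CPM in the WT and 30.2, 39.1 and 57.04 in the LIN28OE kidneys (log2 fold change 2.04, SE 0.31, adjusted p = 0.0185). *Osr1*, an early regulator of kidney mesoderm, had 5.88, 6.82 and 6.82 CPM in the WT and 17.5, 20.2 and 22.7 in the LIN28OE kidneys (log2 fold change 1.63, SE 0.24, adjusted p = 0.0176). *Crym* and *Rspo1*, an R-spondin that enhances Wnt signals, rose by 1.55 and 1.31 on the log2 scale. *Meox1*, *Capn6* and *Uncx* were not called (log2 fold changes 0.83, 0.84 and 0.70, adjusted p = 0.0630, 0.0731 and 0.0796), and the adhesion receptor *Itga8* (-0.09) and *Sall1* (0.35) lay near the level of the WT kidneys. With litter as a block 6 of the 7 kept their call, and *Gdnf* did not. With the fat-marker covariate *Six2* and *Cited1* alone kept theirs, while the median of the list was 0.89.

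*Gdnf*, the ligand that cap mesenchyme sends to the ureteric tip, had 4.71, 4.31 and 2.76 CPM in the WT and 13.3, 15.5 and 23.9 in the LIN28OE kidneys (log2 fold change 2.16, SE 0.34, adjusted p = 0.0212; 0.0549 with litter as a block). Its receptor *Ret*, on the tip, had 10.1, 6.85 and 20.3 CPM in the WT and 29.3, 19.9 and 53.98 in the LIN28OE kidneys, with both litters' LIN28OE kidneys above their own WT littermates but kidney 27 below WT kidney 29, and it was not called (log2 fold change 1.47, SE 0.45, adjusted p = 0.131). *Etv4*, a transcription factor induced by Ret, had 31.4, 32.8 and 36.7 CPM in the WT and 65.8, 60.003 and 84.6 in the LIN28OE kidneys (log2 fold change 1.06, SE 0.18, adjusted p = 0.0291). *Etv5*, *Wnt11* and *Gfra1* of the same pathway had log2 fold changes of 0.30, 0.16 and 0.29 and were not called. Of 19 genes of Gdnf-Ret signalling 3 rose and none fell, with a median of 0.24. Its median was -0.18 in litter 1 and 0.93 in the pair of litter 2. The 12 ureteric tip genes showed the same split, -0.15 against 1.03, and the level of the list was 0.78 in kidney 30 against -0.01 and 0.01 in kidneys 26 and 27.

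Other signals of the nephrogenic zone gave few calls. In Wnt signalling 1 of 24 genes rose, *Rspo1*, and 1 fell, *Sfrp1*, a secreted Wnt antagonist, with 383, 438 and 317 CPM in the WT and 231, 231 and 206 in the LIN28OE kidneys (log2 fold change -0.77, SE 0.15, adjusted p = 0.0425; 0.0549 with litter as a block). *Wnt4* and *Wnt9b*, the inducers of nephron formation, had log2 fold changes of 0.23 and -0.01. In FGF signalling *Etv4* alone of 18 genes rose, and in retinoic acid metabolism *Crabp2*, an intracellular retinoic acid carrier, rose with 6.64, 10.3 and 10.1 CPM in the WT and 29.3, 43.98 and 30.3 in the LIN28OE kidneys (log2 fold change 1.94, SE 0.27, adjusted p = 0.0115) among 14 genes. None of 21 genes of BMP and TGF-beta signalling and none of 10 nephrogenic stroma genes was called at an adjusted p below 0.05 in edgeR (0 and 1 at an unadjusted p below 0.01, and 0 and 2 in DESeq2). *Foxd1*, which defines that stroma, had a log2 fold change of 0.70. Of 34 Hox genes *Hoxd12* alone rose, from 1.41, 1.59 and 0.902 to 7.62, 8.43 and 10.2 CPM (log2 fold change 2.75, SE 0.42, adjusted p = 0.0185), while *Hoxd11* and *Hoxa11*, which pattern the metanephros, had 0.25 and 0.47.

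Early nephron genes leaned the other way, mainly in litter 1. Of 18 tested none rose and 2 fell (0.462% and 0.766% of all genes), and the median was -0.55. *Lfng*, a glycosyltransferase that modifies Notch, had 45.9, 39.6 and 33.8 CPM in the WT and 20.3, 18.998 and 20.5 in the LIN28OE kidneys (log2 fold change -0.997, SE 0.19, adjusted p = 0.0409), and *Papss2* had 100.3, 101 and 72.8 CPM in the WT and 39.9, 54.8 and 43.7 in the LIN28OE kidneys (log2 fold change -0.98, SE 0.19, adjusted p = 0.0459). Neither kept its call with litter as a block (adjusted p = 0.0782 and 0.0704). Without kidney 30, 8 of the list fell, against 6.15% of all genes in that fit. The level in kidney 30 was -0.22 against -0.55 and -0.56 in kidneys 26 and 27 and -0.13 in WT kidney 29. The median of the list was -0.60 in litter 1 and -0.11 in the pair of litter 2, where 8 genes were higher and 10 lower. Among 14 podocyte genes only *Col4a3* fell (log2 fold change -1.15, SE 0.18, adjusted p = 0.0212), with 58.98, 66.5 and 50.6 CPM in the WT and 29.995, 23.1 and 26.2 in the LIN28OE kidneys. *Nphs1* and *Podxl*, of the filtration barrier, had log2 fold changes of 0.44 and -0.11 and were not called. Together with *Col4a1* (log2 fold change -0.77, SE 0.12, adjusted p = 0.0178) and *Col4a2* (log2 fold change -0.73, SE 0.13, adjusted p = 0.0297; 0.0609 with litter as a block), *Col4a3* made up the 3 collagen IV chains that fell among 20 matrix genes.

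**Figure D3:**
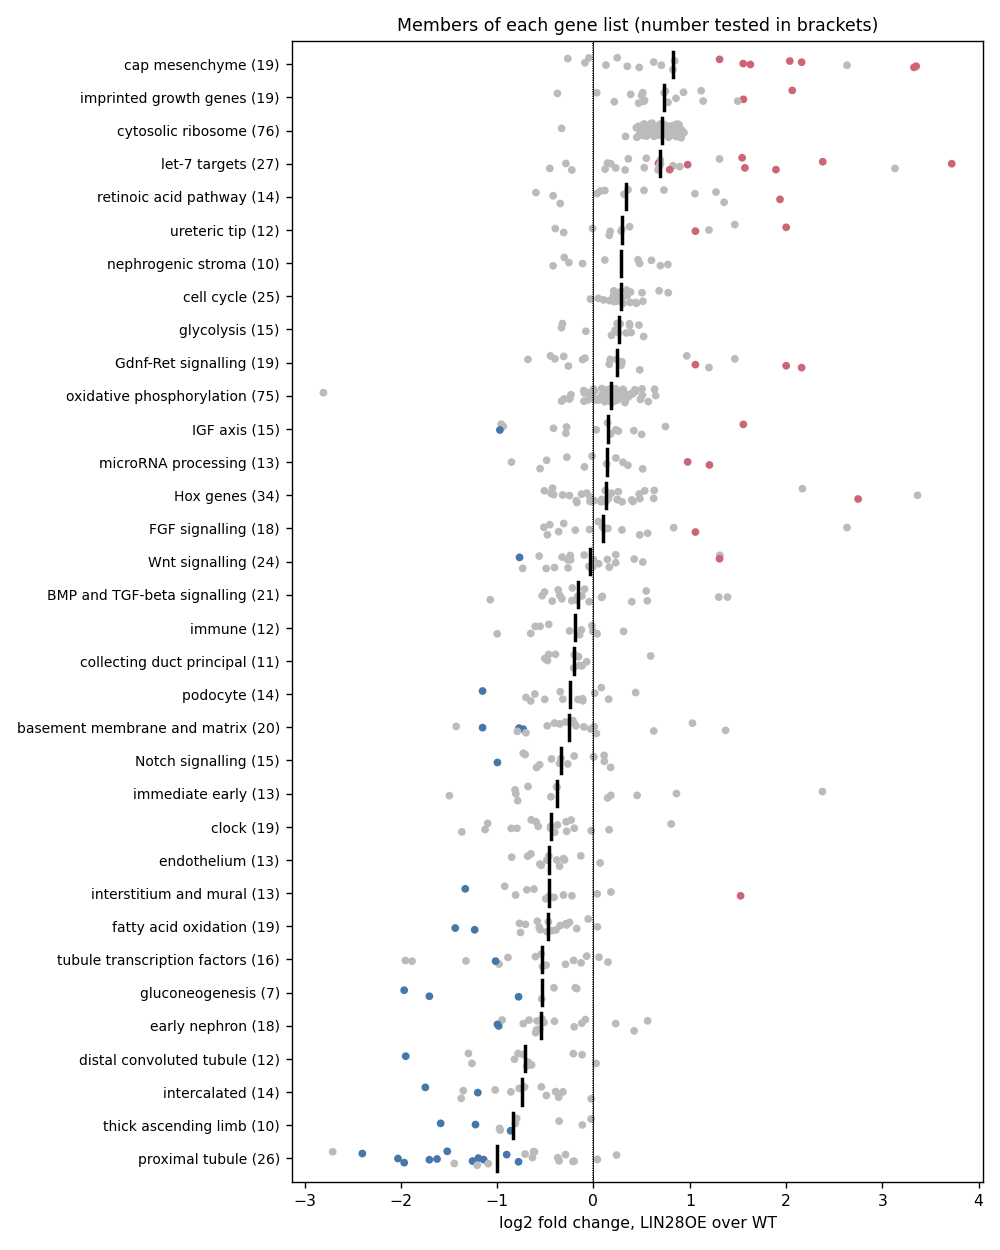
Log2 fold change of LIN28OE over WT (horizontal axis) for each member of 34 gene lists. Red points rose and blue points fell at an adjusted p below 0.05, grey points were not called, and the black bar is the list's median. Cap mesenchyme (median 0.83), imprinted, ribosomal and let-7 target genes lie at the top, and proximal tubule genes (median -0.997) at the bottom. The dotted line is the median over all genes, -0.02.

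Many transporters and enzymes of the proximal tubule, which reclaims filtered solutes, fell in the LIN28OE kidneys. Of 26 proximal tubule genes tested 11 fell and none rose, against 0.766% and 0.462% of all genes. A negative log2 fold change was found for 24 of them, and the median was -0.997. *Slc34a1*, the sodium-phosphate cotransporter of the brush border, had 1188, 1204 and 1203 CPM in the WT and 529, 534 and 507 in the LIN28OE kidneys (log2 fold change -1.20, SE 0.10, adjusted p = 0.000977). The kidneys of each group lay within a few percent of each other. *Gatm*, which makes the precursor of creatine, had 926, 1013 and 827 CPM in the WT and 308, 332 and 325 in the LIN28OE kidneys (log2 fold change -1.52, SE 0.12, adjusted p = 0.000938). *Miox*, the first enzyme of inositol breakdown, had 621, 556 and 703 CPM in the WT and 228, 224 and 158 in the LIN28OE kidneys (log2 fold change -1.62, SE 0.17, adjusted p = 0.00314). The organic anion transporter *Slc22a8* (-1.26), the fatty acid transporter *Slc27a2* (-1.14), the neutral amino acid transporter *Slc6a19* (-2.40), the bicarbonate transporter *Slc4a4* (-0.90) and the acyl-CoA synthetase *Acsm2* (-2.03) fell as well. *Slc5a2*, the glucose transporter SGLT2, had 55.6, 73.04 and 56.8 CPM in the WT and 17.2, 8.68 and 2.48 in the LIN28OE kidneys, with kidney 30 lowest, and did not pass the threshold (log2 fold change -2.71, SE 0.54, adjusted p = 0.0503). The endocytic receptors *Lrp2* and *Cubn* had -0.37 and -0.36, and *Hnf4a*, the transcription factor of proximal identity, -0.29; none of these 3 was called. With litter as a block 10 fell (0.393% of all genes), with *Slc5a2* (0.0469) gained and *Slc4a4* (0.0523) and *Fbp1* (0.0626) lost. Without kidney 30 18 fell and 1 rose, against 6.15% and 6.61% of all genes in that fit. With the fat-marker covariate none of the 11 kept its call, while the median of the list was -0.88.

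The other tubule segments gave fewer calls, all of them lower. *Umod*, the uromodulin of the thick ascending limb, had 419.9, 396 and 353 CPM in the WT and 175, 219 and 106 in the LIN28OE kidneys (log2 fold change -1.23, SE 0.23, adjusted p = 0.0409), and 3 of 10 genes of that segment fell (median -0.84). The other 2 were the prostaglandin receptor *Ptger3* (-1.59) and the claudin *Cldn10* (-0.86), and of the 3 only *Umod* kept its call with litter as a block. *Slc12a3*, the thiazide-sensitive sodium-chloride cotransporter, had 89.1, 103 and 81.1 CPM in the WT and 23.1, 23.98 and 23.6 in the LIN28OE kidneys (log2 fold change -1.95, SE 0.16, adjusted p = 0.000938) and was the 1 gene called of 12 distal convoluted tubule genes (median -0.71). All 3 LIN28OE kidneys lay at nearly 1 level for it. Among 14 intercalated cell genes the proton pump subunit *Atp6v1b1* (log2 fold change -1.20, SE 0.19, adjusted p = 0.0218) and the receptor *Oxgr1* (log2 fold change -1.75, SE 0.31, adjusted p = 0.0340) fell, neither of them with litter as a block (0.0536 and 0.0645). None of 11 principal cell genes was called in edgeR, either at an adjusted p below 0.05 or at an unadjusted p below 0.01, nor in DESeq2, and their median was -0.20. Of 16 tubule transcription factors, the vitamin D receptor *Vdr* fell (log2 fold change -1.02, SE 0.18, adjusted p = 0.0305; 0.0644 with litter as a block).

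**Figure D4:**
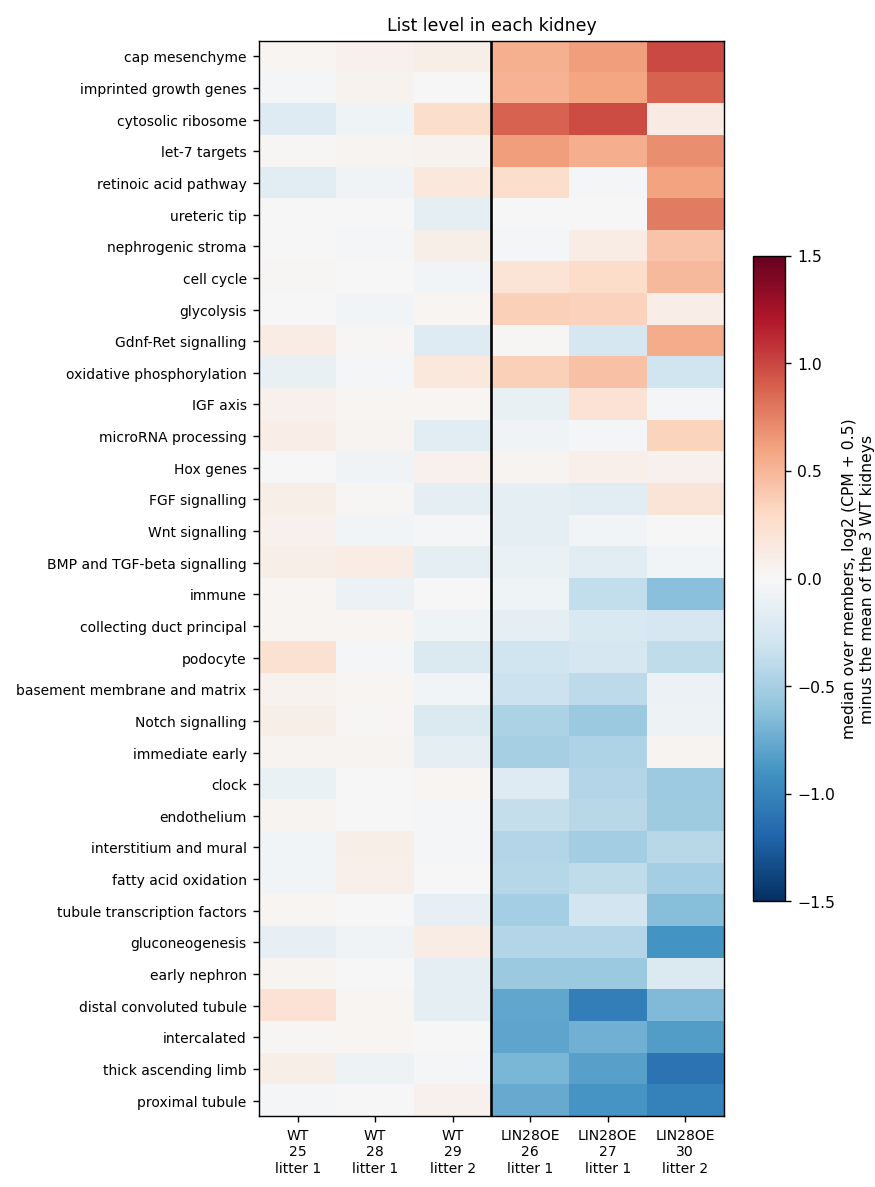
Median level of each gene list (rows) in each kidney (columns), in log2 (CPM + 0.5) minus the mean of the 3 WT kidneys, red for higher and blue for lower. Cap mesenchyme, let-7 target and imprinted genes are higher and tubule genes lower in all 3 LIN28OE kidneys, while cytosolic ribosome and ureteric tip genes differ between kidney 30 and kidneys 26 and 27.

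A few enzymes of glucose synthesis and fatty acid oxidation fell in the LIN28OE kidneys. Of 7 gluconeogenesis genes *G6pc* fell, with 136, 140.1 and 170.5 CPM in the WT and 24.7, 36.6 and 53.1 in the LIN28OE kidneys (log2 fold change -1.97, SE 0.26, adjusted p = 0.00968), *Pck1* fell, with 283, 426 and 709 CPM in the WT and 107, 172 and 157 in the LIN28OE kidneys (log2 fold change -1.70, SE 0.31, adjusted p = 0.0365), and *Fbp1* fell by less (log2 fold change -0.78, SE 0.13, adjusted p = 0.0247; 0.0626 with litter as a block). These 3 catalyse the steps that run only towards glucose, and they are also among the 11 proximal tubule genes that fell. Of 19 fatty acid oxidation genes 2 fell, the cytochrome *Cyp4a10* (log2 fold change -1.44, SE 0.18, adjusted p = 0.00804) and the peroxisomal enzyme *Ehhadh* (log2 fold change -1.23, SE 0.19, adjusted p = 0.0190), and 18 had a negative log2 fold change. None of 15 glycolysis genes was called in edgeR (1 at an unadjusted p below 0.01, 2 higher in DESeq2, median 0.26). With the fat-marker level of each kidney as a covariate the median of the fatty acid oxidation genes was -0.44, against -0.47 without it, but none of the calls of these lists was kept: *Cyp4a10* and *Ehhadh* had adjusted p values of 0.197 and 0.420.

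Cells other than tubule and progenitor cells gave few calls, though most interstitial and endothelial genes had negative log2 fold changes. Of 13 interstitial and mural genes *Des*, the intermediate filament desmin, rose, with 18.3, 25.8 and 25.2 CPM in the WT and 70.1, 64.9 and 64.6 in the LIN28OE kidneys (log2 fold change 1.53, SE 0.18, adjusted p = 0.00726), and the matrix protein *Postn* fell, with 80.4, 79.2 and 54.03 CPM in the WT and 23.2, 25.3 and 36.3 in the LIN28OE kidneys (log2 fold change -1.33, SE 0.23, adjusted p = 0.0311; 0.0692 with litter as a block). *Pdgfrb* and *Pdgfra*, the receptors that mark these cells, had log2 fold changes of -0.81 and -0.69 and did not pass the threshold. Of this list 10 genes had a negative and 3 a positive log2 fold change, with a median of -0.46. For 9 all LIN28OE kidneys lay below all WT kidneys (13.3% of all genes), and for 1 above (10.7%). None of 13 endothelial genes was called in edgeR at an adjusted p below 0.05, and the median was -0.46. At an unadjusted p below 0.01 5 were lower (4.08% of all genes), and DESeq2 called 4 lower (600 of all 15793 genes). A negative log2 fold change was found for 12 of the 13, and for 9 all LIN28OE kidneys lay below all WT kidneys (13.3% of all genes). None of 12 immune genes was called in edgeR, with 1 lower at an unadjusted p below 0.01 and 1 lower in DESeq2.

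No ribosomal protein or cell cycle gene was called in edgeR, and the level of the former differed between the LIN28OE kidneys. None of 76 ribosomal protein genes passed an adjusted p below 0.05 in edgeR, and the median was 0.71. At an unadjusted p below 0.01 31 were higher, against 3.25% of all genes. The level was 0.89 and 0.97 in kidneys 26 and 27 but 0.12 in kidney 30, below the 0.26 of WT kidney 29. DESeq2 called 62 of them higher, against 646 of all 15793 genes. Without kidney 30 72 rose, against 6.61% of all genes, and with the length slope as a covariate 63, against 3.33%. Of 25 cell cycle genes none was called in edgeR. At an unadjusted p below 0.01 6 were higher (3.25% of all genes), and DESeq2 called 7 higher (646 of all 15793 genes). Of the list 24 had a positive log2 fold change (median 0.29), with medians of 0.22 in litter 1 and 0.49 in litter 2. *Top2a*, a topoisomerase of dividing cells, had 209, 205 and 197 CPM in the WT and 299, 273 and 301 in the LIN28OE kidneys (log2 fold change 0.51, adjusted p = 0.0684), with all LIN28OE kidneys above all WT kidneys.

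The 2 litters were compared next. In litter 1 alone, with 2 kidneys a group, 1510 genes (9.49%) were higher and 1092 (6.86%) lower, and 2591 of these are among the 15670 genes tested both there and over all kidneys. In the pair of litter 2, which had no part in that choice, 49.9% of them had the same sign, against 50.4% of all these genes. The share grew with the size of the change, to 58.2% (401 of 689 genes) at a log2 fold change of size 1 or more and to 70.7% (87 of 123) at a size of 2 or more. With 1 kidney a group in litter 2 no test of these shares was made. Sex differed between the 2 contrasts: in litter 2 the LIN28OE kidney was female and the WT kidney male, while the only male of litter 1 was LIN28OE kidney 26. The length slope was lower in LIN28OE than WT in litter 1 (-0.105 and -0.109 against 0.103 and 0.0527). In litter 2 it was higher (0.104 against -0.0458). The part of sex and length slope in the differences between litters was not tested. The lists behaved unevenly. Cap mesenchyme genes had a median of 0.89 in litter 1 and 0.93 in litter 2, let-7 targets 0.57 and 0.71, and proximal tubule genes -0.87 and -1.05. Ribosomal protein genes had 1.10 and -0.15, and genes of oxidative phosphorylation 0.49 and -0.45.

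**Figure D5:**
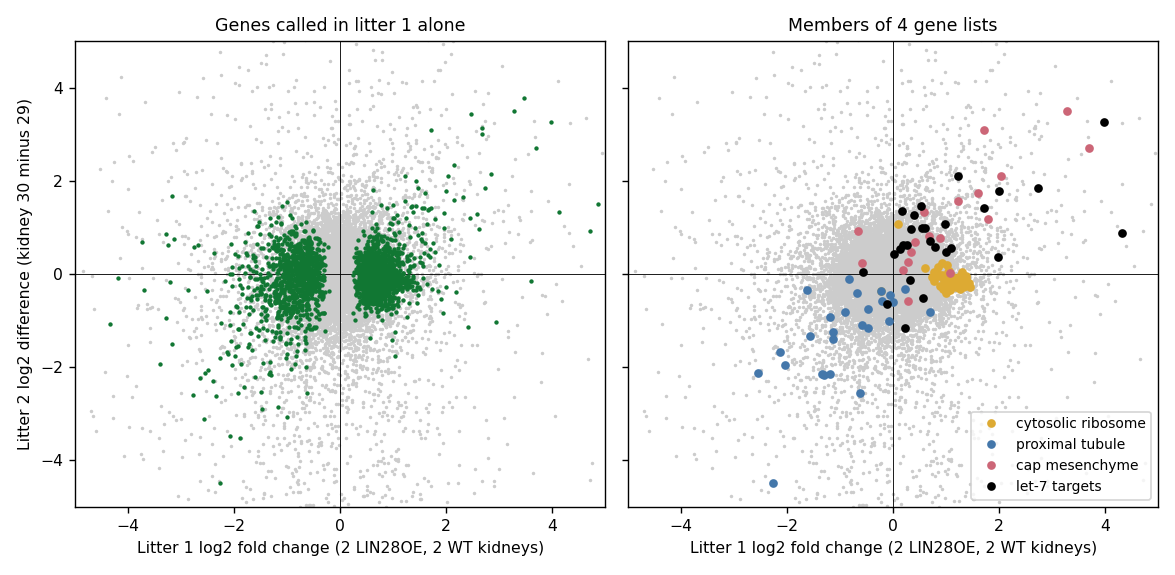
Log2 fold change in litter 1 (2 LIN28OE and 2 WT kidneys, horizontal axis) against the log2 difference in litter 2 (kidney 30 minus kidney 29, vertical axis), 1 point a gene, with axes ending at -5 and 5. Kidney 30 was female and kidney 29 male. Green points are genes called in litter 1 alone, of which 49.9% keep their sign in litter 2; among the 4 lists, ribosomal genes sit to the right of the vertical axis near a litter 2 difference of 0.

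Outside the lists, several genes were named for the size of their change or their small p. *Meox2*, a homeobox factor of mesoderm, had 1.24, 1.61 and 2.02 CPM in the WT and 13.4, 17.3 and 28.2 in the LIN28OE kidneys (log2 fold change 3.60, SE 0.38, adjusted p = 0.00337). *Traf1* and *Phf19*, a Polycomb-associated protein, lie near each other on chromosome 2 and rose by 2.96 and 2.52 on the log2 scale. *Amph* rose by 2.19 and *Eno3*, the muscle enolase, by 2.08. *Nox4*, an NADPH oxidase abundant in kidney, and *Cyp4a14*, a fatty acid hydroxylase, were among the genes of largest decrease. *Nox4* had 66.2, 72.5 and 60.9 CPM in the WT and 15.8, 10.8 and 9.84 in the LIN28OE kidneys (log2 fold change -2.45, SE 0.22, adjusted p = 0.00120), and *Cyp4a14* had 55.04, 65.8 and 70.2 CPM in the WT and 7.44, 12.4 and 8.09 in the LIN28OE kidneys (log2 fold change -2.78, SE 0.24, adjusted p = 0.000977). *Gpx3*, the secreted glutathione peroxidase that the proximal tubule makes, had 4812, 4723 and 5171 CPM in the WT and 2001, 2026 and 2130.2 in the LIN28OE kidneys, with the kidneys of each group close together (log2 fold change -1.26, SE 0.09, adjusted p = 0.000938). *Ugt1a2*, a glucuronosyltransferase of a gene cluster whose members share exons, had 129.97, 152 and 108 CPM in the WT and 25.4, 31.8 and 30.7 in the LIN28OE kidneys (log2 fold change -2.15, SE 0.18, adjusted p = 0.000938), and how shared reads were counted is not given in the sources used here. *Serpina6* (-1.99), *Slc14a2* (-2.02), *Slc22a27* (-2.41), *Hnmt* (-2.75), *Sptssb* (-2.57) and *Slc10a1* (-2.12) also fell. For each of these the LIN28OE kidneys lay below every WT kidney, which was a condition for naming them. With litter as a block *Traf1*, *Sptssb* and *Slc10a1* lost their call (adjusted p = 0.0782, 0.0524 and 0.0737).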

How the data were processed

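RNA from each whole kidney was extracted with Trizol. Libraries came from the SMARTer Ultra Low chemistry and were read on an Illumina HiSeq machine. The submitters' processing notes name cutadapt, TopHat2 2.0.9, Bowtie2, SAMtools 0.1.19, HTSeq and the mm10 build, and the authors deposited whole-number read counts per gene symbol. The annotation and strand setting are not given in the sources used here, so overlapping, antisense and near-identical genes are uncertain.

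Counts of the 6 kidneys were fitted in edgeR 4.0.16 (R 4.3.3) with filterByExpr (minimum count 10, minimum total count 15), TMM scaling and quasi-likelihood F tests, and p values were adjusted by Benjamini-Hochberg over the 15793 genes tested. A gene was called at an adjusted p below 0.05. The SE is the size of the log2 fold change over the root of F. Totals of 41225426 to 61872736 counts limit precision most for genes of low counts, for counting error only. List levels are medians of log2 (CPM + 0.5). Length slopes used genes of at least 1 CPM and GENCODE M21 transcript lengths. The scripts were tested on simulated data.

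Alternatives were DESeq2 1.42.0, other scaling and filters, a litter block, each kidney left out, litter 1 alone, a fit of all 12 kidneys, a Y-linked covariate and other thresholds, and, after the data were seen, transcript-length and fat-marker covariates. Litter numbers in the labels mark shared litters. The main fit had no litter term, and the litter block was an alternative whose values stand beside the results it changed. The deviations of kidneys of the same litter but different groups correlated between -0.155 and -0.007, against 0.024 to 0.157 across litters.

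Genes were named by rule. Of the called genes whose groups did not overlap, these were the 15 of largest and the 15 of lowest log2 fold change. Further ones were the 5 of smallest p in each direction, *Lin28a*, *Lin28b*, *Wt1* and sex-linked checks, and list members. Lists and comparison were chosen with earlier results of these data known. Some members of the lists are not reported here by name.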

Additional observations from a re-analysis of the deposited data

How the results depend on the processing

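Against 194 genes called (73 higher and 121 lower in LIN28OE), DESeq2 called 1246 (646 and 600), a filter of at least 1 CPM in every kidney gave 401 (138 and 263), and litter as a replicate block gave 95 (33 and 62). Litter 1 alone gave 2602 (1510 and 1092), with 2795 genes at an unadjusted p below 0.01 against 1158 over all 6 kidneys. The transcript-length covariate gave 1069 (526 and 543), and the fat-marker covariate gave 9 (6 and 3), with 319 at an unadjusted p below 0.01; both were chosen after the data were seen. Leaving out 1 kidney gave 21 to 2074 calls (8 to 1074 higher, 13 to 1000 lower) and 515 to 2509 genes at an unadjusted p below 0.01. At an adjusted p below 0.10 the count was 684 (282 and 402), and with a log2 fold change of size 1 or more it was 121 (44 and 77). Size factors in place of TMM, no filter on low counts, the fit of all 12 kidneys and the Y-linked covariate kept the count within 1.5 times. The 194 genes kept their sign in every alternative in which they were tested. Besides the calls named as lost or gained in the report, the litter block lost those of *Ocm*, *4930412C18Rik*, *Aven* and *Fzd2* (adjusted p = 0.0744, 0.0773, 0.0871 and 0.0594) and changed no other call of a gene named in the text. Some genes that were not called changed sign. *Etv5* and *Gfra1* had -0.23 and -0.18 in litter 1 alone, *Insr* -0.041 with the length covariate, *Itga8* 0.18 with the length and 0.41 with the fat covariate, *Wnt9b* 0.0111 with DESeq2, 0.0108 with its size factors and 0.084 with the length covariate, and *Xpo5* 0.0084 and 0.0083 with the former pair, 0.23 with the length and 0.013 with the fat covariate. *Xist* had -0.051 with the Y-linked covariate, -0.88 in litter 1 alone and -0.78 with the fat covariate. With 1 kidney left out, *Col1a1* ranged from -0.028 to 0.12, *Etv5* from -0.17 to 0.52, *Gfra1* from -0.10 to 0.45, *Insr* from -0.028 to 0.41, *Itga8* from -0.55 to 0.14, *Podxl* from -0.199 to 0.055, *Wnt9b* from -0.29 to 0.29, *Xist* from -0.51 to 0.67 and *Xpo5* from -0.29 to 0.20. The causes of these differences were not tested. The main limits are 3 kidneys a group, a single pair in litter 2, the opposite length slope of kidney 30 and the fat markers of WT kidneys 25 and 28. Depth limits genes of low counts most.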

Other observations

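A few genes were detected in 1 group and listed at 0 or nearly so in the other. Their levels in the other 6 kidneys of the series, 3 WT and 3 let-7 knockout kidneys of mixed strain, are given as values. *Pnmt*, the enzyme that makes adrenaline, had 209, 168 and 149 counts in LIN28OE kidneys 26, 27 and 30 and 0 in each of their WT littermates. This was at least 149-fold higher against 3 counts over the group. *Pnmt* stood at 0 CPM in the 3 mixed-strain WT kidneys and at 0.233, 0 and 0.440 CPM in the 3 let-7 knockout kidneys. Of the 5 adrenal markers tested *Pnmt* alone was called, and *Th* and *Dbh*, the enzymes before it, did not pass the count filter. *Ocm*, the calcium-binding protein oncomodulin, had 262, 75 and 99 counts against 0, at least 124-fold higher, and 0 in the 6 mixed-strain kidneys. *Cml2* had 143, 237 and 139 counts in WT kidneys 25, 28 and 29 and 0 in the LIN28OE kidneys, at least 203-fold lower. It had 1.39, 4.22 and 1.51 CPM in the mixed-strain WT kidneys and 0.316, 0 and 0 CPM in the let-7 knockout kidneys. *4930412C18Rik* had 2.80, 1.42 and 0.902 CPM in the WT and 0, 0.0192 and 0 in the LIN28OE kidneys and also fell (adjusted p = 0.0437 in edgeR).

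*Rbm45*, on chromosome 2, had 4.73, 4.67 and 3.23 CPM in the WT and 29.5, 28.7 and 26.1 in the LIN28OE kidneys and rose (log2 fold change 2.74, SE 0.25, adjusted p = 0.00127). *Tmem87a*, on the same chromosome, had 2.61, 3.74 and 3.08 CPM in the WT and 18.95, 20.8 and 27.2 in the LIN28OE kidneys and rose too (log2 fold change 2.83, SE 0.29, adjusted p = 0.00248). In the mixed-strain kidneys *Rbm45* had 3.86, 2.20 and 31.5 CPM in the WT and 63.2, 39.5 and 38.9 in the let-7 knockout kidneys. *Tmem87a* had 50.2, 30.5 and 54.7 CPM in these WT and 63.3, 45.5 and 29.2 in the let-7 knockout kidneys. Near the engineered loci, 5 of 308 genes within 10 Mb of *Col1a1* were called (1.62%, against 1.23% of all genes), *Etv4*, *Fzd2*, *G6pc*, *Igf2bp1* and *Pnmt*, none of 127 near the *Rosa26* locus, and 1 of 69 near *Wt1*, *Aven*. *Wt1* is on chromosome 2 too, at 105126529-105173614. Of the genes of largest or lowest log2 fold change or smallest p, *Traf1*, *Phf19* and *Hoxd12* rose and lie on that chromosome, outside the window. *Hnmt* and *Gatm*, which fell, do so as well. The part of position in these changes was not tested. These genes and windows were chosen after their values were seen.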
